A study of Mus musculus with 3 samples.

Results

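The regions described here were those in which wild-type caudal epiblast-like cells (CEpiLC) had a called peak of accessible chromatin and neither culture of an engineered line lacking endogenous Sox2 did. They were chosen by peak presence alone: the 3 deposited ATAC-seq peak lists were pooled on mouse chromosomes 1 to 19 other than 6, 8 and 11, overlapping or touching peaks were merged, and merged regions holding a CEpiLC peak and no peak of the other lists were kept. This gave 28891 CEpiLC-only regions, 20.0% of the 144115 merged regions and 31.4% (95% Wilson interval 31.1 to 31.7) of the 91938 regions that CEpiLC covered. Since presence and absence of a peak made the class, these shares are descriptions, and with 1 library in each group no difference between the cultures could be tested. A region without a called peak can still hold reads, so CEpiLC-only means listed in CEpiLC only, not closed elsewhere.

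All 3 cultures were differentiated from mouse embryonic stem cells for 72 h. For 2 days each was given bFGF at 10 ng/ml together with LGK974 at 5 µM, a porcupine inhibitor that stops WNT proteins from being secreted, and after that also CHIR99021, a GSK3 inhibitor that activates WNT/β-catenin signalling inside the cell. The wild type behind CEpiLC was the HM1 TetON line (XY), from which the engineered line was also derived and which carries the doxycycline transactivator at Rosa26. SOX2-ON and SOX2-OFF came from 1 Sox2-/- clone with a doxycycline-inducible Sox2 transgene at Hprt, kept in 1 µg/ml doxycycline, which was maintained in SOX2-ON and withdrawn in SOX2-OFF. The wild-type culture therefore differed from both others in clonal history, endogenous Sox2 alleles, the Sox2 transgene and earlier culture in doxycycline. From SOX2-ON it also differed in doxycycline during differentiation and in SOX2 level, which the study gives as high in SOX2-ON. SOX2 level may differ from SOX2-OFF too. The study calls both cultures low in SOX2, but it gives CEpiLCs moderate levels and treats SOX2-OFF as a loss of SOX2. These differences cannot be told apart in these libraries. The study describes low levels of SOX2, probably protein persisting after doxycycline was removed, and of the related Sox3 in SOX2-OFF cells, so this culture may not be free of the factor family.

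ATAC-seq inserts sequencing adapters with a transposase into DNA that nucleosomes leave exposed, so peaks mark promoters, enhancers and insulator sites. Caudal epiblast cells, the posterior progenitors that give rise to spinal cord and trunk mesoderm, are known for WNT and FGF signalling, for T (Brachyury) and for the homeodomain factors of the CDX and HOX families, which bind A/T-rich sites. SOX2 itself binds DNA through an HMG box and can open chromatin at its sites.

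The strongest CEpiLC-only regions are shown first, because they set the upper end of the class and differ greatly in sequence type. The 4 below are the strongest, the second, the third and the ninth by the deposited −log10 p, with the plus-strand bases of GRCm38.p6 for the whole region or, for the ninth, its central 200 bp; capitals mark the letters CNATAAA or their reverse complement TTTATNG, a core recognised by CDX and HOX proteins, which 1 of the 10 strongest regions held in its central 200 bp.
Il31ra intron, chr13:112578175-112578334: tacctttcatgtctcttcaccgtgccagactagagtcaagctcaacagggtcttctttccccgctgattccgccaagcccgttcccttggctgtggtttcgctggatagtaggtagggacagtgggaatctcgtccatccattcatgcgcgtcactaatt
Pcca intron, chr14:122568955-122569111: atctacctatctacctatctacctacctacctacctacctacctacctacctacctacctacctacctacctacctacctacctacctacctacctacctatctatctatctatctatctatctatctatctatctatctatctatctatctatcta
Gm2682 intron, chr15:60141758-60141975: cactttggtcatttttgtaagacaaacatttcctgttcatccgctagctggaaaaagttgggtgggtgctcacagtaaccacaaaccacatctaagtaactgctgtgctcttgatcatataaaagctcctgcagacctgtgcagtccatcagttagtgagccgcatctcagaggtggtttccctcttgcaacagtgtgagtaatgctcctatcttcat
Intergenic near Irx1, chr13:72210224-72210423: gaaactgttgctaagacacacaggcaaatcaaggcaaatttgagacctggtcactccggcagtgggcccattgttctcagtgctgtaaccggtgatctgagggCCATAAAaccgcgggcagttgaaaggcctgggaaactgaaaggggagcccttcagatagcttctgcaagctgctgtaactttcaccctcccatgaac

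The region in an intron of Il31ra, which encodes an interleukin 31 receptor subunit, had a fold enrichment of 18.4 over the local background and a −log10 p of 624, the peak caller's measure of strength (−log10 q is the same after adjustment for the number of tests). The region in an intron of Pcca, a subunit of mitochondrial propionyl-CoA carboxylase, followed with 8.21-fold and 133. The third, in an intron of the long non-coding RNA gene Gm2682, already stood at 3.10-fold and 22.1, and the tenth at 14.5. The first pair were also short and not unique in the genome: the Il31ra region was 160 bp, its central 50 bases occurred 2 times in GRCm38 (the other copy on chromosome 14 at 56694024 to 56694073, inside Mphosph8), and of 10 stretches of 25 bases along it, the most frequent occurred 16 times. All 157 bases of the Pcca region were repeat-masked, and its central 50 bases occurred 39 times. The letters of the Il31ra region resemble large-subunit ribosomal RNA, whose genes are present in many copies; no ribosomal RNA sequence was compared here, so these values may not belong to this locus alone. Whether repeated sequence had a part in either enrichment was not tested.

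The other members among the 10 strongest were spread over unrelated loci. They lay in an intron of Taf3, a TFIID subunit gene (2.99-fold, −log10 p 18.02), 4420 bp from Ccne1, the gene of cyclin E1 (2.18-fold, 16.7), and between genes 677427 bp from Tmpo (2.84-fold, 16.5). The seventh, on chromosome 16 between 3351101 and 3351644, was 82.5% repeat-masked over its central 200 bp and its central 50 bases occurred 2 times. The eighth covered a transcript start of Neb, the gene of the muscle protein nebulin (2.64-fold, 14.8), the ninth lay 246146 bp from the homeobox gene Irx1 (2.65-fold, 14.6) and the tenth covered the immunoglobulin segment Ighv8-8 (2.61-fold, 14.5). By position 4 of the 10 were intronic, 4 intergenic and 2 within 1 kb of a transcript start, and 3 held at least 1 of the 14 motifs searched.

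The 5 strongest regions within 1 kb of a protein-coding transcript start belonged to genes of unlike function. After Neb came Pstpip2, encoding a membrane-bending F-BAR protein (2.13-fold, −log10 p 11.5), Set, a histone chaperone (2.03-fold, 11.1), Crybg2, a crystallin-domain protein (1.84-fold, 9.67), and Catsperd, a subunit of the sperm calcium channel (2.09-fold, 8.89). The regions of Crybg2 and Catsperd overlapped coding exons, and those of Neb, Pstpip2 and Set untranslated ones.

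CEpiLC-only regions carrying the CDX/HOX letters are shown next, because caudal cells use these factor families. The 4 below are the strongest such regions over 1 kb from a coding start and outside the top 10, leaving out 1 that overlapped an untranslated exon of 5031410I06Rik; the 200 bases around the peak midpoint are given on the plus strand of GRCm38.p6, with the match in capitals.
Between genes, 73222 bp from Ppp3ca, chr3:136596622-136596821: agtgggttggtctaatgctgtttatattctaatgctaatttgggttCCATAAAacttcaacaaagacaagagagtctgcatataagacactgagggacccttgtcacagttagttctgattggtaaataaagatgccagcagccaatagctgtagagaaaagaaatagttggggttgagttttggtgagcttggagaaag
Between genes, 5036 bp from Lpgat1, chr1:191712231-191712430: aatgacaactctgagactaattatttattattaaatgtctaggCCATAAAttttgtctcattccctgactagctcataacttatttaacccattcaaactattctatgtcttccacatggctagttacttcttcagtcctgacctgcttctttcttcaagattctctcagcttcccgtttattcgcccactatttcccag
Between genes, 32632 bp from Rbm47, chr5:66205869-66206068: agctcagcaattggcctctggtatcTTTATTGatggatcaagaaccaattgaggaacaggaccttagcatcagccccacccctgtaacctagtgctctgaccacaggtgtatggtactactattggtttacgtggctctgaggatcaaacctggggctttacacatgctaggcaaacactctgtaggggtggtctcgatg
Piwil1 intron, chr5:128732701-128732900: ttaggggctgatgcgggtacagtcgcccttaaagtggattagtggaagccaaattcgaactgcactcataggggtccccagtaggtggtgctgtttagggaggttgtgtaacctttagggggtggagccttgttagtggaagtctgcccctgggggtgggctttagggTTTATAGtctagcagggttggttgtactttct
Their fold enrichments were 2.64, 2.50, 2.52 and 2.31 and their −log10 p 13.9, 13.9, 12.1 and 11.3, in this order. Each held 1 match. Repeat-masked bases made up 44.5%, 38%, 36.5% and 15.5% of the 200 bases, and the central 50 bases of each occurred 1 time in the genome. Those of the region left out, which had a −log10 p of 11.4, occurred 2 times. A match is a run of letters and not a measured binding site.

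The 3 lists held 129843 to 131520 peaks, and on the 16 autosomes counted 95025 in CEpiLC, 85388 in SOX2-ON and 86563 in SOX2-OFF. CEpiLC peaks had a median −log10 q of 2.16, against 3.89 for SOX2-ON and 3.36 for SOX2-OFF peaks, and the share of peaks reaching 5 was 23.95%, 43.9% and 39.97%, respectively. Chromosomes 6 and 8 held about as many peaks per Mb as the median autosome in CEpiLC (0.930 and 1.01 times) and 2.998 to 3.29 times as many in the engineered line, whereas chromosome 11 held 3.98 times as many in CEpiLC and 1.45 and 1.49 times in SOX2-ON and SOX2-OFF, and these 3 chromosomes were left out. Read depth is unknown, since the lists give no counts. Promoter peaks could not tell the cell type: CEpiLC had a peak within 1 kb of a start of each of the 16 caudal epiblast genes listed, T, Cdx1, Cdx2, Cdx4 and Tbx6 among them, but also of each of the 12 naive pluripotency genes and of 11 of 14 genes of blood, endothelium, endoderm, trophoblast, muscle and neurons.

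Most members were weak peaks close to the limit of the list. Their median −log10 q was 1.59, with 1.38 and 1.91 at the quartiles, and the weakest stood at 1.005. The median fold enrichment was 1.65, and it lay between 1.54 and 1.81 from the 5th to the 95th percentile. By −log10 p the 100th region stood at 8.24, the 1000th at 5.04 and the 10000th at 3.56. Only 5959 regions (20.6%) reached a −log10 q of 2, 1159 (4.01%) reached 3 and 202 (0.699%) reached 5. In contrast, the regions of all 3 lists had a median CEpiLC −log10 q of 4.62, and 47.6% reached 5. Each member consisted of a single CEpiLC peak, with a median width of 303 bp against 1351 bp for regions of all 3 lists, and together they covered 10.9 Mb.

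The share of CEpiLC regions that were CEpiLC-only differed with strength. It was 63.8% where the CEpiLC −log10 q was under 1.5, 49.5% from 1.5 to 2, 27.8% from 2 to 3, 8.67% from 3 to 5 and 0.898% (interval 0.783 to 1.03) at 5 and over, that is 202 of 22488 regions. The engineered line gave like gradients with other end points: at a −log10 q of 5 and over in the respective list, 14.2% of SOX2-ON regions were seen in SOX2-ON only and 2.08% of SOX2-OFF regions in SOX2-OFF only. Thus among strong peaks the wild-type culture had the lowest exclusive share of the 3 and SOX2-ON the highest. The lists differed in enrichment, so the same −log10 q does not mark the same accessibility in each.

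**Figure D1:**
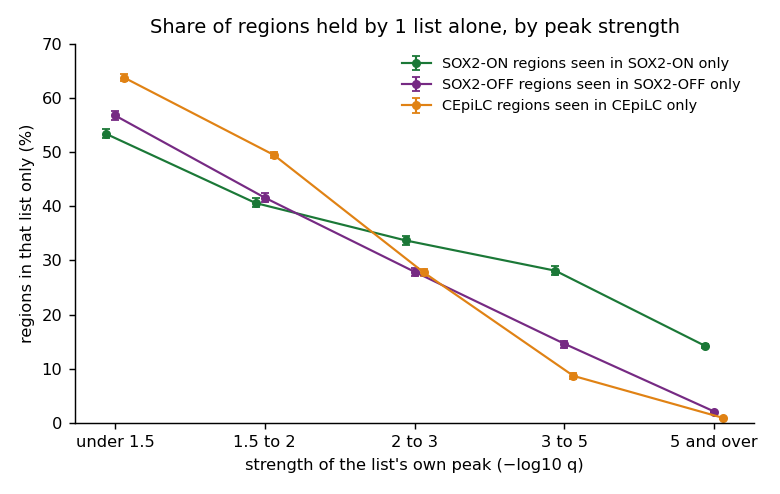
Share of merged regions held by 1 list alone (y axis, %) against the −log10 q of that list's own strongest peak (x axis, 5 bins), for SOX2-ON, SOX2-OFF and CEpiLC; bars are 95% Wilson intervals, which cover counting error only. The CEpiLC share is the highest of the 3 under 1.5 (63.8%) and the lowest at 5 and over (0.898%).

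The border of the class was fine-grained. A peak of the engineered line lay within 10 bp of 99 members (0.343%), within 100 bp of 854 (2.96%) and within 1 kb of 5452 (18.9%), and the median gap was 3189 bp. Just inside the border, the 99 regions within 10 bp had a median −log10 q of 1.53. Just outside it, 4611 of the other 63047 CEpiLC regions (7.31%) were removed only by engineered-line peaks with a −log10 q under 1.5, and their median CEpiLC −log10 q was 1.68. The median gap from a member to a region of all 3 lists was 8814 bp, compared with 12649 bp for SOX2-ON-only and 9734 bp for SOX2-OFF-only regions. Such a region lay within 1 kb of 6.55% of members, 4.45% of SOX2-ON-only and 3.61% of SOX2-OFF-only regions. Another member lay within 10 kb of 41.0% of members.

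CEpiLC-only regions were mostly distal. They fell in introns (12032 regions, 41.6%), between genes (11061, 38.3%), in exons (3009, 10.4%) and within 1 kb of a transcript start (2789, 9.65%, interval 9.32 to 9.999). Of the regions of all 3 lists, 37.6% lay within 1 kb of a start and 21.96% in introns. Distances were measured from the edges of a region, so a wider region reaches more starts and exons. Regions of all 3 lists were wider than members, with medians of 1351 and 303 bp, and the part of width in these shares was not tested. With the 5′ ends of protein-coding genes as the sole starts, the shares were 1.61% (464 regions) and 23.4%. The start share of the other exclusive classes was close to that of the members, 8.76% in SOX2-ON-only and 10.1% in SOX2-OFF-only regions. The median distance from a member to a coding start was 25.1 kb, against 11.01 kb for regions of all 3 lists. The median GC content was 50.5% in members and in all merged regions, which include them. It was 47.5% in SOX2-ON-only and 48% in SOX2-OFF-only regions and 53.5% in regions of all 3 lists. Of the central 200 bp windows, 40.3% held no repeat-masked base in members and in all merged regions. In SOX2-ON-only regions, SOX2-OFF-only regions and regions of all 3 lists this share was 35.2%, 36.9% and 46.1%.

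Weak and strong members lay alike relative to starts. The share within 1 kb of a start was 9.66%, 9.53%, 9.96%, 9.51% and 9.90% from the weakest to the strongest bin, whereas in regions of all 3 lists it stayed between 17.02% and 19.3% up to a −log10 q of 5 and was 59.2% beyond. The last bin has no upper limit, and the classes were not matched for strength within it. By −log10 p the 100th member stood at 8.24, whereas the upper quartile of −log10 q over all regions of all 3 lists was 13.1. Of the 202 strongest members, 86 lay between genes, 76 in introns, 20 in exons and 20 within 1 kb of a start.

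**Figure D2:**
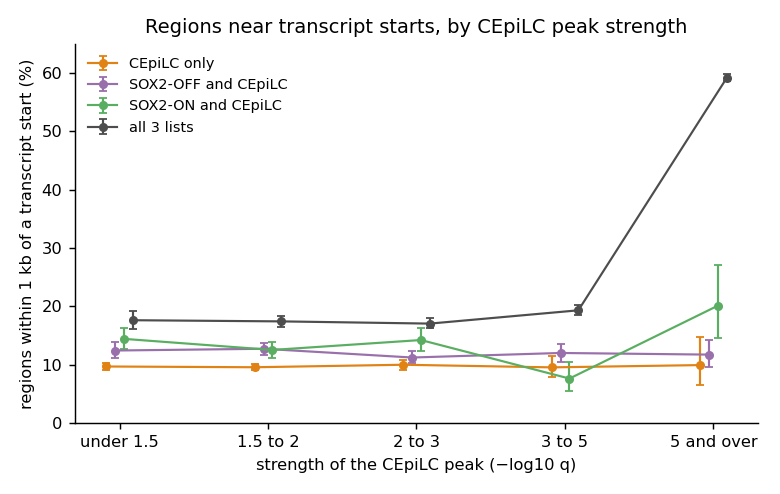
Share of regions within 1 kb of an annotated transcript start (y axis, %) against the −log10 q of the strongest CEpiLC peak (x axis, 5 bins), for CEpiLC-only regions and the other classes that CEpiLC covered, with 95% Wilson intervals. CEpiLC-only regions stay between 9.51% and 9.96%, and regions of all 3 lists reach 59.2% at 5 and over, a bin without upper limit.

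Members were spread along the genome without a dominant locus. Their density ran from 10.1 per Mb on chromosome 14 to 19.3 on chromosome 17, with a median of 13.6, and their share of CEpiLC regions from 27.9% on chromosome 7 to 33.8% on chromosome 16. Over 2054 windows of 1 Mb the median was 11 members. The fullest window, on chromosome 1 from 89 to 90 Mb, held 56, which was 55.4% of its CEpiLC regions, and the next 4, on chromosomes 15, 12, 17 and 4, held 52 to 54. By gene body, counted without regard to length, Fgfr2, an FGF receptor, held 80, but over an annotated span of 2961 kb that reaches past its neighbours and includes Nkx1-2. Camta1, a calmodulin-binding transcription activator, held 49 and Agap1, an Arf GTPase-activating protein in the fullest window, held 36 in 443 kb, 8.13 per 100 kb and 56.2% of its CEpiLC regions. Ptprn2, a receptor-type phosphatase family member of secretory vesicles, held 31 and Arid1b, a BAF chromatin remodelling subunit, held 27 in 353 kb. The other 5 of the 10 fullest, Gm37240, Macrod2, Mcc and the cadherins Cdh4 and Cdh23, held 22 to 24.

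**Figure D3:**
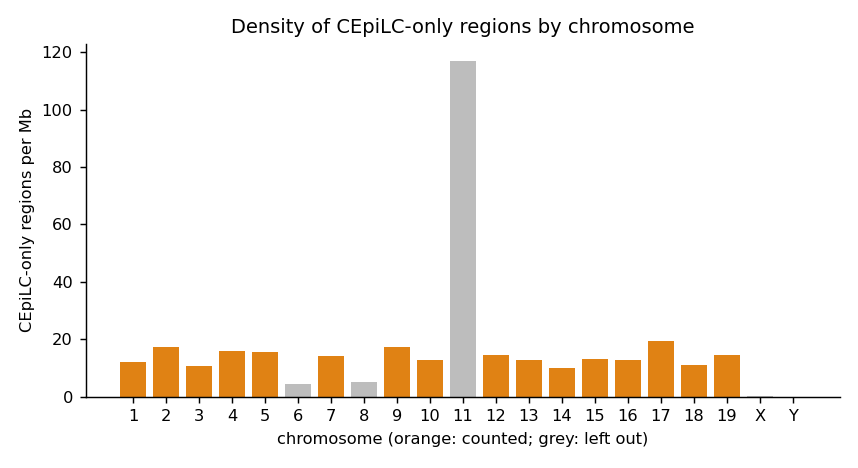
CEpiLC-only regions per Mb (y axis) by chromosome (x axis), in orange for the 16 autosomes counted and in grey for chromosomes left out. The counted autosomes lie between 10.1 and 19.3 per Mb, chromosome 11 at 117, and chromosomes 6 and 8 at 4.43 and 5.14.

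A CEpiLC-only region near a gene was the common state. Of 16993 protein-coding genes on the 16 autosomes, 14293 (84.1%) had a member in the gene body or within 50 kb of it, with a median of 3 per gene. Against this background, 11 of 12 caudal epiblast genes had one, as had 12 of 12 early streak and mesendoderm genes, 12 of 12 Hox genes, 9 of 11 formative and primed epiblast genes, 7 of 9 anterior and neural genes, 6 of 8 naive pluripotency genes, 7 of 8 WNT targets and transducers, 7 of 8 genes of retinoic acid and FGF feedback and 8 of 9 genes of other cell types. These counts lie near the background and are no result about the lists. Listed genes off the 16 autosomes were not counted, among them the caudal genes Cdx4, Wnt3a, Wnt5b and Evx1 and the 6 listed Hoxa and Hoxb genes. The 12 Hox genes counted, all Hoxc or Hoxd, share their neighbourhoods, and only 6 distinct regions lay around them, 10.3% of the 58 CEpiLC regions there. Around the caudal genes 53 of 201 CEpiLC regions (26.4%) were CEpiLC-only, around the early streak genes 41 of 146 (28.1%), around the anterior and neural genes 20 of 113 (17.7%), around the naive genes 26 of 113 (23.01%) and around the genes of other cell types 22 of 90 (24.4%), beside 31.4% of all CEpiLC regions. No list stood above that share.

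Among caudal genes the strongest member lay 7898 bp upstream of Tbx6, the T-box factor of paraxial mesoderm, in an intron of Gdpd3. It had a −log10 q of 6.002 and 1.79-fold enrichment, and its nearest coding start was that of Ypel3 at 3370 bp. Next came Meis3, a TALE homeodomain cofactor of HOX proteins, with 4.09 at 1.68-fold, 2620 bp upstream, and Greb1 with 3.17 at 1.69-fold, 4696 bp upstream. Cdx2, the caudal homeodomain factor, came after these with 3.03 at 1.51-fold, 1974 bp upstream; it was singled out after its value was seen. Of the 53 members around caudal genes, 4 reached a −log10 q of 3 and 1 reached 5, beside 4.01% and 0.699% of all members, and counts this small say nothing particular to the list. Around the early streak genes 3 of 41 reached 3 and none 5, and around the genes of other cell types 3 of 22 reached 3 and 1 reached 5. Weaker members lay at T (1.98, 7838 bp downstream), Sp8, a zinc finger factor (2.97, 816 bp downstream), Fgf8, a secreted growth factor (1.72, 44090 bp upstream, with the CDX/HOX letters) and Nkx1-2, a homeodomain gene of caudal progenitors (1.98, 399 bp downstream, also with the CDX/HOX letters), and Msgn1 had none within 50 kb. The central 200 bp of the regions upstream of Tbx6 and Cdx2 follow, on the plus strand of GRCm38.p6, to show that neither holds the CDX/HOX letters, nor any other of the 14 motifs.
Upstream of Tbx6, chr7:126773173-126773372: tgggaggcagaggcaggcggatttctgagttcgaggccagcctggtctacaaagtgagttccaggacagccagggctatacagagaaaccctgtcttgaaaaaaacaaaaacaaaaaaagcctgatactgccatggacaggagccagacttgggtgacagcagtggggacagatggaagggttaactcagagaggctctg
Upstream of Cdx2, chr5:147309315-147309514: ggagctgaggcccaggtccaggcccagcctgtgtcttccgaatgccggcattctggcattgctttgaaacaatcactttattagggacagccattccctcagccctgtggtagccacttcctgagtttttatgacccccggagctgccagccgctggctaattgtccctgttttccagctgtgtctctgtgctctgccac
The Tbx6 window was 65.5% repeat-masked and the Cdx2 window not at all.

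Of the 26 members around naive pluripotency genes none reached a −log10 q of 3, and the list was led by the orphan nuclear receptor gene Nr5a2 (2.46, intronic), Esrrb, a related receptor (2.14, 3205 bp downstream) and Tfcp2l1, a grainyhead-like factor (1.90, 27704 bp upstream). The formative and primed list was led by Lef1, a transcriptional partner of β-catenin that also headed the WNT list (3.21, intronic), followed by the DNA methyltransferase genes Dnmt3b (2.90, exonic) and Dnmt3a (2.51, 4935 bp downstream). Further WNT genes were Tcf7l2, another β-catenin partner (2.17, intronic), and Fzd10, a WNT receptor (2.10, 42653 bp upstream, with TCF/LEF letters).

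Mesendoderm, anterior and other cell types also had members of comparable strength. Gsc, a homeodomain factor of the organiser, had 3.88 (22724 bp downstream), Tdgf1, the NODAL co-receptor, 3.82 (33322 bp upstream, in an exon of Lrrc2) and Gata4, an endoderm and heart factor, 3.07 (intronic). In the anterior and neural list Pax3, a dorsal neural factor, had 3.72 (intronic), Sox2 itself 2.35 (15113 bp upstream, within Sox2ot) and Nes, an intermediate filament gene, 2.34 (12522 bp upstream). Among retinoic acid and FGF genes the ETS factor gene Etv5 had 3.12 (intronic), Aldh1a2, a retinoic acid synthesis enzyme, 1.998 (25764 bp downstream) and the receptor gene Rarb 1.93 (intronic). The strongest member near any listed gene, with 6.52 at 2.13-fold, lay in an exon of Hnf4a, a liver and endoderm factor of the other cell types list, and held both CDX/HOX and GATA letters. Krt7, a keratin of simple epithelia, had 3.03 (intronic) and Tal1, a blood factor, 2.34 (14174 bp upstream).
The strongest members near Hox genes were 1 region in an intron of Hoxc4, which served Hoxc4, Hoxc5, Hoxc6, Hoxc8 and Hoxc9 alike (2.35 at 1.65-fold), and 1 within Hoxc9 and Hoxc5 (2.16 at 1.58-fold, with CDX/HOX letters).

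Motif shares of CEpiLC-only regions were set beside those of all merged regions. In the central 200 bp, on either strand, the SOX letters CCNTTGT were found in 3075 members (10.6%) and 12.2% of all merged regions (12.1 to 12.4), of which SOX2-ON-only regions had 18.6%, regions of all 3 lists 10.4% and those shared with SOX2-OFF 10.3%. The octamer ATGCAAAT of POU factors was in 0.772% and 1.30%, the GATA letters AGATAA in 7.61% and 9.36% (15.2% of SOX2-ON-only regions and 6.93% of regions of all 3 lists), the KLF letters CCACNCCC in 7.07% and 8.40%, and the CTCF core CNAGGGGGC in 0.671% and 1.16%. The CDX/HOX letters were in 2127 members (7.36%, 7.07 to 7.67) and in 7.03% of all merged regions (6.90 to 7.16), and in 8.11% of SOX2-ON-only and 8.23% of SOX2-OFF-only regions. The remaining letters were TCF/LEF CTTTGAT (3.02% and 3.37%), T-box AGGTGTNA (2.93% in both), FOXH1 AATNCACA (3.08% and 3.05%), ZIC CAGCAGG (9.32% and 9.70%), AP-1 TGANTCA (5.94% and 6.47%), TEAD CATTCCA (3.32% and 3.27%), MEIS TGACAGNT (4.13% and 3.84%) and ETS CCGGAAGT (0.235% and 0.478%). The motifs can overlap: CDX/HOX letters with G at the free position share GATAA with the GATA letters.

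The CDX/HOX share of members was higher where the CEpiLC peak was stronger. It was 7.20%, 7.19% and 7.31% in the 3 bins up to a −log10 q of 3, 9.93% (95 of 957, 8.19 to 11.98) from 3 to 5, and 14.9% (30 of 202, 10.6 to 20.4) at 5 and over. From 3 to 5 it was 9.27% (8.29 to 10.3) in SOX2-ON-only and 8.65% (7.39 to 10.1) in SOX2-OFF-only regions, by their own peaks. Regions shared with SOX2-ON had 8.71% (6.43 to 11.7), those shared with SOX2-OFF 7.38% (6.24 to 8.72) and those of all 3 lists 7.72% (7.15 to 8.33). In the strongest bin of the other classes it was 7.98% (6.22 to 10.2) where SOX2-OFF shared the region, 7.55% (4.37 to 12.7) where SOX2-ON did, 4.61% (4.34 to 4.90) in regions of all 3 lists, 8.77% (8.04 to 9.56) in SOX2-ON-only and 7.39% (5.70 to 9.54) in SOX2-OFF-only regions, the last 2 by their own peaks. That bin has no upper limit, so the classes were not matched for strength in it. Matches of the strongest bin were spelled CAATAAA in 16 members, CCATAAA in 11 and CTATAAA in 4, and CGATAAA in none, which allows a share of up to 1.87% by the Wilson interval. The letters read backwards, AAATANC, which keep the base composition, were in 11 of the 202 (5.45%, 3.07 to 9.49). This share is 1 of 420 computed (14 motifs, 5 strength bins and 6 classes), it was known before these values were made, and no test is given for it.

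The share differed with repeats and with the window searched. Among members of the strongest bin over 1 kb from every start the share was 15.9% (11.3 to 21.9), beside 6.73% in such regions of all 3 lists. Where SOX2-OFF or SOX2-ON shared such regions it was 7.94% (6.09 to 10.3) or 6.30% (3.23 to 11.9). With a GC content of 40% to 60% it was 13.3% (9.02 to 19.2) in members, beside 6.51% for all 3 lists. Where SOX2-OFF or SOX2-ON shared the region it was then 8.20% (6.33 to 10.6) or 8.03% (4.54 to 13.8). The members' interval overlaps that of SOX2-ON-shared regions in both subsets and that of SOX2-OFF-shared regions in the GC subset. Among members of the strongest bin with no repeat-masked base the share was 9.64% (8 of 83, 4.97 to 17.9), beside 3.54% for all 3 lists and 8.15% where SOX2-OFF shared the region, so there the intervals of members and SOX2-OFF-shared regions overlap widely. Over all 202 members of the strongest bin the share was 6.44% in the central 100 bp and 23.8% in the central 400 bp. A longer window can only raise such a share, and the other classes were not searched at these lengths.

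**Figure D4:**
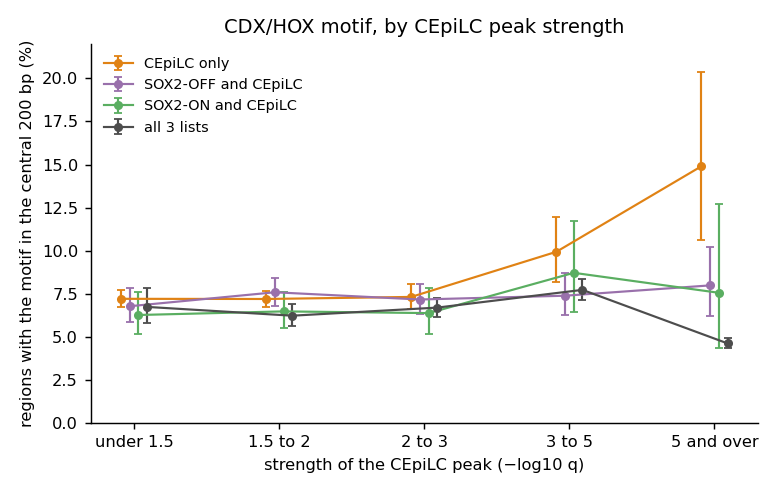
Share of regions with the CDX/HOX letters in the central 200 bp (y axis, %) against the −log10 q of the strongest CEpiLC peak (x axis, 5 bins) for the 4 classes that CEpiLC covered, with 95% Wilson intervals. CEpiLC-only regions stand at 14.9% in the strongest bin, which has no upper limit, and the other classes between 4.61% and 7.98%.

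The matches did not gather at peak midpoints. Around the 1048 members over 1 kb from starts with a −log10 q of 3 and over, the central 200 bp held 64.4 matches per 1000 regions per 100 bp and the flanks from 500 to 1000 bp held 64.98. Around the 25054 weaker members the centre was lower than the flanks, 39.9 against 59.5, as it was around regions of all 3 lists with a −log10 q of 3 and over, 40.1 against 56.5, and around those that SOX2-OFF shared, 41.05 against 64.9. Members of 3 and over thus lacked the central dip of these 3 sets, and no other class was profiled. Around the 182 members of 5 and over the centre held 85.2, from 31 matches, and the flanks 65.9, while single 100 bp steps ran from 38.5 to 98.9.

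**Figure D5:**
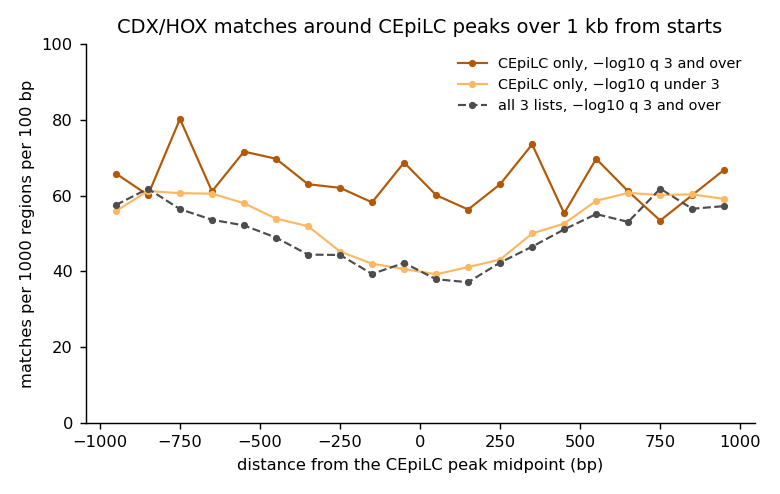
CDX/HOX matches per 1000 regions per 100 bp (y axis) against the distance from the CEpiLC peak midpoint (x axis, bp), for CEpiLC-only regions of −log10 q 3 and over or under 3 and for regions of all 3 lists of 3 and over, all over 1 kb from starts. The stronger CEpiLC-only regions are level at 53.4 to 80.2, and both other lines dip towards the midpoint.

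Among the other motifs, the ZIC letters, bound by zinc finger factors of epiblast and neural cells, were in 8.35% of the weakest members and 17.8% (36 of 202, 13.2 to 23.7) of the strongest, but the share was also 16.4% (13.9 to 19.2) where SOX2-OFF shared the region and 15.5% in SOX2-OFF-only regions, beside 10.3% in regions of all 3 lists. The TCF/LEF letters, the site of the β-catenin partners, followed no order with strength: they were in 2.94%, 3.07% and 2.83% of members in the 3 bins up to 3, in 4.60% (44 of 957, 3.44 to 6.12) from 3 to 5 and in 2 of the 202 strongest (0.990%, 0.272 to 3.54). At 5 and over they were in 2.51% of regions of all 3 lists, in 7.84% (6.10 to 10.0) of the strongest regions shared with SOX2-OFF and in 10.2% of the strongest SOX2-OFF-only regions. The SOX letters were in 9.90% of the strongest members (6.50 to 14.8) and in 25.8% of the strongest SOX2-ON-only regions (24.6 to 27.0). In the classes nearest to the members the SOX share of this bin was alike, 9.14% in regions of all 3 lists, 10.2% where SOX2-OFF shared the region and 11.2% in SOX2-OFF-only regions.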

How the data were processed

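ATAC-seq was made from 50000 cells per culture, 1 library for each of the 3 groups, which were read from the sample labels. The authors aligned the reads to mm10 and called broad peaks in each library on its own with MACS2, as their methods and the submitters' processing notes state; no control library was described. The deposited lists hold, for each peak, a display score (not used), a fold enrichment ratio over local background, and −log10 p and −log10 q values. Reads or counts per peak are not given, so depth is unknown and no interval for a single peak could be made.

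Peaks were merged with a gap of 0 bp, and bedtools 2.31.1 gave the same number of merged regions from the same lists. Starts are those of all GENCODE M21 transcripts, and distances to them run from the edges of the merged region. The genome is GRCm38.p6, the assembly behind mm10, read with pysam 0.24.0 in Python 3.11.15. A region's strength is that of its strongest CEpiLC peak, and its base composition and motifs were read in the 200 bp around that peak's midpoint. Motif search was tested on random sequences with planted motif letters. Intervals for shares are 95% Wilson intervals and cover counting error only, since PCR reads are not independent molecules and peaks are not replicates. There was no replicate, so no test was run.

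Regions and lists were chosen with earlier results of these data known. Named were the 10 members with the highest −log10 p, the 5 strongest within 1 kb of a coding start, the 5 strongest with CDX/HOX letters over 1 kb from one, the 3 genes per list with the strongest members within 50 kb, the 10 coding genes with most members and the 5 fullest 1 Mb windows. Alternatives varied the peak threshold, merging, chromosomes, start distance and motif window.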

Additional observations from a re-analysis of the deposited data

Results flagged for a closer look

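Chromosome 11, which the selection leaves out, held 14311 CEpiLC-only regions, 117 per Mb, where the 16 autosomes counted held 10.1 to 19.3 per Mb. It was singled out because it lies outside the chromosomes compared and stands above them. There 65.98% of the 21689 CEpiLC regions were CEpiLC-only, against 11.04% on chromosome 6, 11.9% on chromosome 8 and 6.89% on the X chromosome. CEpiLC peaks of any kind were 3.98 times as dense on chromosome 11 as on the median autosome, and the part of that density in the CEpiLC-only count was not tested.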

How the results depend on the processing

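The number of members depended mainly on the peak threshold. It was 9309 with a −log10 q of at least 2 in every list and 883 with 5, 5959 and 202 with these limits on CEpiLC alone, 6746 with the strongest 50000 peaks of each list and 44599 on chromosomes 1 to 19, X and Y, and stayed within 1.5 times under the other 4 settings. In the same order the share of CEpiLC regions was 18.3%, 3.93%, 11.7%, 0.898%, 17.97% and 35.3%. It was 30.5% and 28.96% when gaps of up to 100 and 500 bp were merged, 34.6% with 500 bp around each midpoint, and 31.1% without merging when under 10% of the peak was covered. The share within 1 kb of a start was 11.4% and 13.5% with 2 and 5 in every list, 12.8% with the strongest 50000, 11.3% with 500 bp midpoints and 8.95% on all chromosomes. With starts within 500 bp or 5 kb it was 6.52% or 31.7%. Chosen after seeing the data, 5′ ends of coding genes gave 1.61% and peak midpoints 8.48%, the latter computed for members only. The CDX/HOX share was 7.67% and 9.85% with 2 and 5 in every list, 7.99% and 14.9% with these limits on CEpiLC, 9.12% with the strongest 50000, 7.83% on all chromosomes, 12.9% over whole regions and, chosen later, 6.80% without repeat-masked bases. For members of 5 and over, settings also chosen later gave 13.9% on all chromosomes and 14.9% with 500 bp gaps. The cause of these shifts was not tested. No paired analysis was possible because there was only 1 library in a group, and leaving out a replicate could not be run. Peak lists without depth limit all absence calls.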
